A study of Mus musculus with 19 samples.

Results

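The mouse genes Dennd2d, Dtx1, Cd9 and Prag1 (DENND2D, DTX1, CD9 and PRAG1 in the count table), were read across regulatory T cells (Tregs) from the lymph nodes of burned and unburned mice. They were chosen by their values: each was lower in CD44high than in CD44low Tregs of uninjured mice, and in CD44high Tregs of injured mice each lay nearer to the CD44low level. The rule set no threshold, and it took 4 of 24982 genes in the table. All 4 passed the filter on low counts, which left 11464 genes for testing. Because the choice used the CD44high injury comparison and the CD44low level, values in those comparisons are given as a description with no test, and the CD44low injury comparison is the one that was tested for these genes.

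The cells were CD4+ FoxP3-GFP+ T cells of Foxp3DTR mice, which make a diphtheria toxin receptor fused to green fluorescent protein from the Foxp3 locus, so every group, the uninjured one included, carried this allele. They were sorted by CD44 staining from axillary, brachial and inguinal nodes that drain the injury site. Injured mice had received a burn over 20% of the body surface by immersion in water at 90 °C for 9 s and were sampled 7 days later. Uninjured mice had been handled alike with water at room temperature, and mice were 8 to 16 weeks old. There were 4 CD44high uninjured, 5 CD44low uninjured, 4 CD44high injured and 6 CD44low injured samples, and RNA came from 50000 cells of each. The labels do not say whether each sample was a separate mouse or a pool, so p-values measure the spread between these samples, which may in part be technical.

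Library totals ran from 5582234 to 9433610 counts. The sort was visible in the counts. Cd44 stood at 594 ± 37.5 CPM (a gene's count scaled to the library total, mean ± SD) in CD44high and 133 ± 16.1 in CD44low Tregs of uninjured mice, and Foxp3 was detected in all 4 groups, with means between 70.6 and 115 CPM. As whole pools of RNA were sequenced, fewer cells of a type and less RNA per cell cannot be told apart behind a lower value.

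Tregs restrain other immune cells, and CD44, an adhesion receptor, stays high on those that have met antigen, whereas resting Tregs carry little CD44. The 4 genes act in separate pathways. Dtx1 encodes Deltex1, a ubiquitin ligase of the Notch pathway that is itself a Notch target and is tied to T cell anergy downstream of NFAT. Notch receptors are cut within the membrane after ligand binding, and the freed part enters the nucleus to act with Rbpj. Prag1 encodes a pseudokinase of the PEAK family that binds the kinase Csk. Cd9 encodes a tetraspanin, a small membrane protein that gathers integrins and immunoglobulin-family partners into patches, and Dennd2d encodes a DENN domain protein that loads nucleotide onto Rab9, a GTPase of endosome-to-Golgi transport.

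In the GENCODE annotation (GRCm38, vM21), Dennd2d (ENSMUSG00000027901.12) lies on chromosome 3 at 106482405-106503030 on the plus strand and Dtx1 (ENSMUSG00000029603.15) on chromosome 5 at 120680202-120711927 on the minus strand. Cd9 (ENSMUSG00000030342.8) lies on chromosome 6 at 125460266-125494791 on the minus strand and Prag1 (ENSMUSG00000050271.12) on chromosome 8 at 36094828-36147787 on the plus strand. The labels name both mm9 and mm10, so these positions are those of the reference and not read from the count table. The joined exons of Cd9 span 2.04 kb, of Dtx1 5.27 kb, of Dennd2d 6.87 kb and of Prag1 9.61 kb. Dennd2d shares 771 exon bases with Cept1 and 407 with the non-coding 2010016I18Rik, both on the opposite strand. Without a stated strand setting in the counting, reads there cannot be assigned with certainty. Cd9 shares 218 exon bases with the opposite-strand Gm26728, whereas exons of Dtx1 and Prag1 overlapped no other gene.

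The start regions of Dennd2d and Cd9 are shown because these genes had the closest group pattern among the pairs. Both are RefSeq windows (GRCm38.p6) of bases before the gene's most upstream start, printed up to the GENCODE start in the direction of transcription, with the Rbpj core TGGGAA, the NFAT core TGGAAA and the GC box GGGCGG of SP and KLF factors, on either strand, in capitals. Dennd2d is at chr3:106482181-106482404 on the plus strand and Cd9 at chr6:125494792-125495010 on the minus strand.
Dennd2d: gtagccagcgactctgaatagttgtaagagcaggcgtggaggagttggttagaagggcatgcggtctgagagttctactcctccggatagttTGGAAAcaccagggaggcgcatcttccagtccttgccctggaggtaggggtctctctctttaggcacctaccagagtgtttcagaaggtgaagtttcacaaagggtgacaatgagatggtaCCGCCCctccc
Cd9: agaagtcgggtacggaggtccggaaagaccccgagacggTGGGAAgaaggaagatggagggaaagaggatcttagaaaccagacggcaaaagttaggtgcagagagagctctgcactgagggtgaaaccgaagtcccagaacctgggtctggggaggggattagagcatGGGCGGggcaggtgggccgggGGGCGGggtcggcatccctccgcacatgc

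The GC box letters stood once in the 250-base window of Dennd2d and at 2 places in that of Cd9, against 33.0% of 27025 mouse windows with at least 1. The window of Dtx1 held them at 3 places, 2 of which overlap, and is not printed because it lies wholly past the GENCODE start of the gene. The Rbpj core was found in the Cd9 window, as in 21.5% of all windows, and the NFAT core in the Dennd2d window, as in 18.7%. Neither core occurred in the Dtx1 window. Of the other motifs searched, the KLF core CACCC occurred once in each of the windows of Dennd2d, Dtx1 and Cd9 (51.3% of all windows), and the ETS core CCGGAA once (12.3%) and the E-box CANNTG at 3 places (66.1%) in that of Cd9. The forkhead core TGTTTAC and the TCF and LEF core CTTTGA occurred in none of the windows. For Prag1 no window was used. These are matches of letters, and binding was not measured.

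Dennd2d varied little between libraries of a group, with a coefficient of variation from 6.17 to 12.4%. In CD44high uninjured Tregs its 4 libraries read 22.6, 23.2, 28.2 and 21.5 CPM, and in CD44high injured Tregs 62.0, 60.3, 53.1 and 59.0 CPM. CD44low uninjured Tregs read 83.2, 90.5, 90.3, 79.6 and 91.7 CPM, and CD44low injured Tregs ran from 79.7 to 97.8 CPM with a median of 90.7. The CD44high injured libraries therefore stood alone between the other levels, above every CD44high uninjured library and below every CD44low library. The means were 23.9 ± 2.95 (SD, n = 4), 58.6 ± 3.86 (n = 4), 87.1 ± 5.37 (n = 5) and 89.6 ± 7.70 CPM (n = 6) in that order. Only the CD44low means of uninjured and injured mice lay within their spread of each other. Next to it, 2010016I18Rik ran through the same groups at 2.59, 6.08, 8.41 and 12 CPM and Cept1 at 111, 137, 119 and 172 CPM. The part of shared reads in the Dennd2d values was not tested.

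Dtx1, the Notch pathway ligase, reached the CD44low uninjured level in CD44high injured Tregs. Its CD44high uninjured libraries read 98.3, 84.7, 55.5 and 74.2 CPM and its CD44high injured libraries 178, 298, 258 and 232 CPM. CD44low uninjured libraries lay close together at 252, 239, 232, 230.5 and 261 CPM, inside the range of the CD44high injured ones. CD44low injured libraries ran higher, from 292 to 482 CPM with a median of 416. Group means were 78.2 ± 18.1, 241 ± 50.5, 243 ± 13.3 and 395 ± 72.2 CPM for CD44high uninjured, CD44high injured, CD44low uninjured and CD44low injured Tregs. The middle pair did not differ beyond its spread.

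Cd9, the tetraspanin, had the widest subset difference of the 4 genes on the log2 scale. In mean CPM it kept most of its difference, with 37.8% closed, and on the log2 scale 56.1% was closed. Its CD44high uninjured libraries read 27.8, 19.3, 27.0 and 28.4 CPM, and its CD44high injured libraries 78.7, 49.2, 59.1 and 61.8 CPM. CD44low uninjured libraries read 107, 124, 129, 119 and 132 CPM. In CD44low injured Tregs the range was 114 to 168 CPM with a median of 153. No CD44high injured library reached the CD44low range. The means were 25.6 ± 4.24, 62.2 ± 12.3, 122 ± 9.69 and 148 ± 20.7 CPM in the order used above, and the CD44low groups overlapped.

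Prag1, the pseudokinase, had the lowest counts and the widest relative spread in both CD44high groups. The CD44high uninjured libraries read 22.3, 17.3, 12 and 13 CPM, from 72 to 125 counts each. Their CD44high injured counterparts read 28.7, 58.6, 47.6 and 38.1 CPM. CD44low uninjured libraries read 60.6, 64.1, 65.5, 53.3 and 52.3 CPM, and CD44low injured ones ran from 53.7 to 74.5 CPM with a median of 62.9. CD44high injured replicate 3 was thus inside the CD44low range, the others below it. The means were 16.1 ± 4.68, 43.2 ± 12.8, 59.1 ± 6.09 and 63.1 ± 9.08 CPM, and the CD44low means were within their spread of each other.

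**Figure D1:**
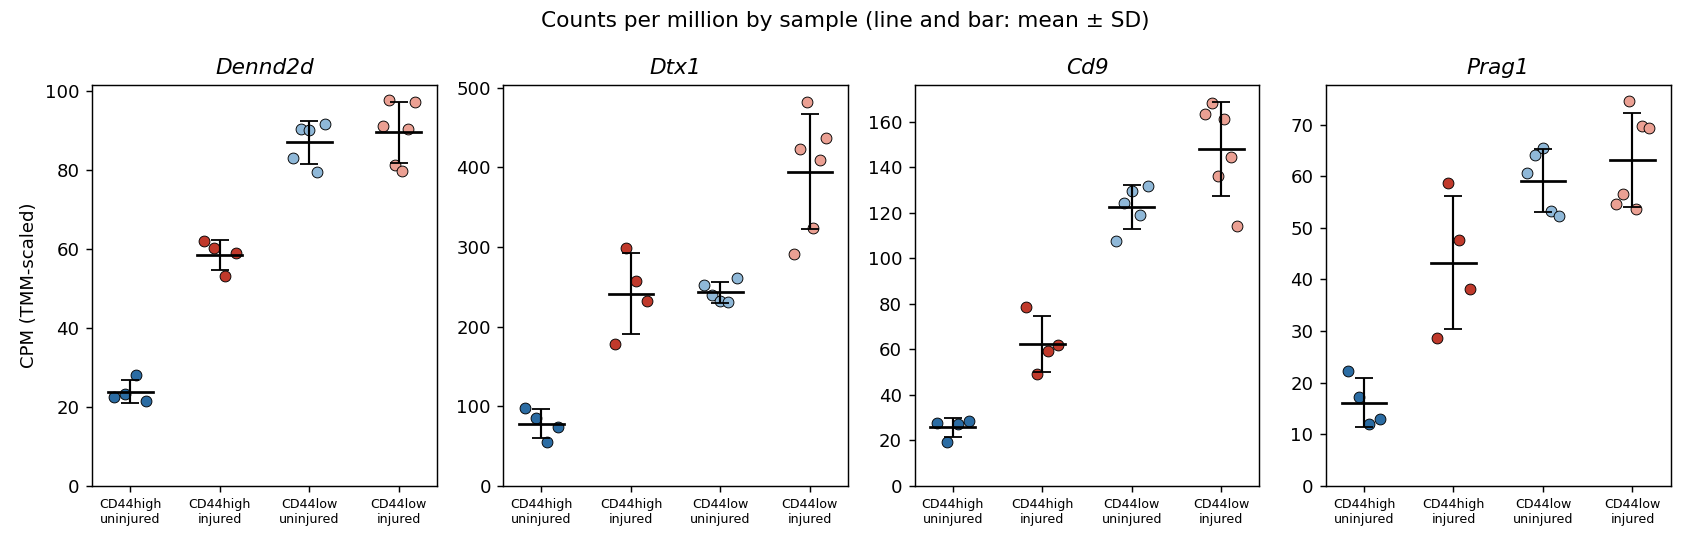
CPM (y axis, from 0) of the 4 genes in each of the 19 samples, by CD44 subset and injury; points are samples, the line is the group mean and the bar is 1 SD. In each panel the 4 CD44high injured samples lie above the 4 CD44high uninjured ones, and for Dtx1 they overlap the CD44low uninjured samples.

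Per kilobase of joined exons, Cd9 and Dtx1 were the more abundant pair in every group. In CD44low uninjured Tregs Cd9 stood at 59.9 ± 4.74 CPM per kb, Dtx1 at 46.1 ± 2.52, Dennd2d at 12.7 ± 0.78 and Prag1 at 6.16 ± 0.63. In CD44high uninjured Tregs Dtx1 (14.8 ± 3.43) and Cd9 (12.5 ± 2.07 CPM per kb) did not differ beyond their spread. In CD44high injured Tregs Dtx1 stood at 45.8 ± 9.57 and Cd9 at 30.4 ± 5.99 CPM per kb, followed by Dennd2d at 8.53 ± 0.56 and Prag1 at 4.50 ± 1.34. In CD44low injured Tregs Dtx1 (74.9 ± 13.7) and Cd9 (72.4 ± 10.1) did not differ beyond their spread.

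In uninjured mice the subset difference, CD44high minus CD44low, was -2.25 on the log2 scale for Cd9 (SE 0.15), -1.88 for Prag1 (SE 0.20), -1.87 for Dennd2d (SE 0.11) and -1.64 for Dtx1 (SE 0.17), estimated with edgeR. Cd9 was thus 4.77-fold and Dtx1 3.11-fold higher in CD44low Tregs. Every CD44low library was above every CD44high library for all 4 genes, which was also so for 18.8% of all genes tested. This comparison entered the choice of the genes, so nothing is read from that count.

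In CD44high Tregs, injured minus uninjured, the difference was 1.63 for Dtx1 (SE 0.17), 1.43 for Prag1 (SE 0.20), 1.30 for Dennd2d (SE 0.12) and 1.28 for Cd9 (SE 0.15) on the log2 scale, that is between 2.42-fold and 3.09-fold. All 4 injured libraries were above all 4 uninjured ones for each gene, as for 5.90% of all genes. This too is the contrast the genes were selected on.

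In injured mice the subset difference was still below 0 for each gene. It was -1.25 for Cd9 (SE 0.14), -0.71 for Dtx1 (SE 0.15), -0.61 for Dennd2d (SE 0.10) and -0.54 for Prag1 (SE 0.18). The subsets were apart, library by library, for Dennd2d and Cd9 but not for Dtx1 and Prag1, and 9.20% of all genes had every CD44low injured library above every CD44high injured one. The CD44high injured libraries are shared with the preceding comparison.

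**Figure D2:**
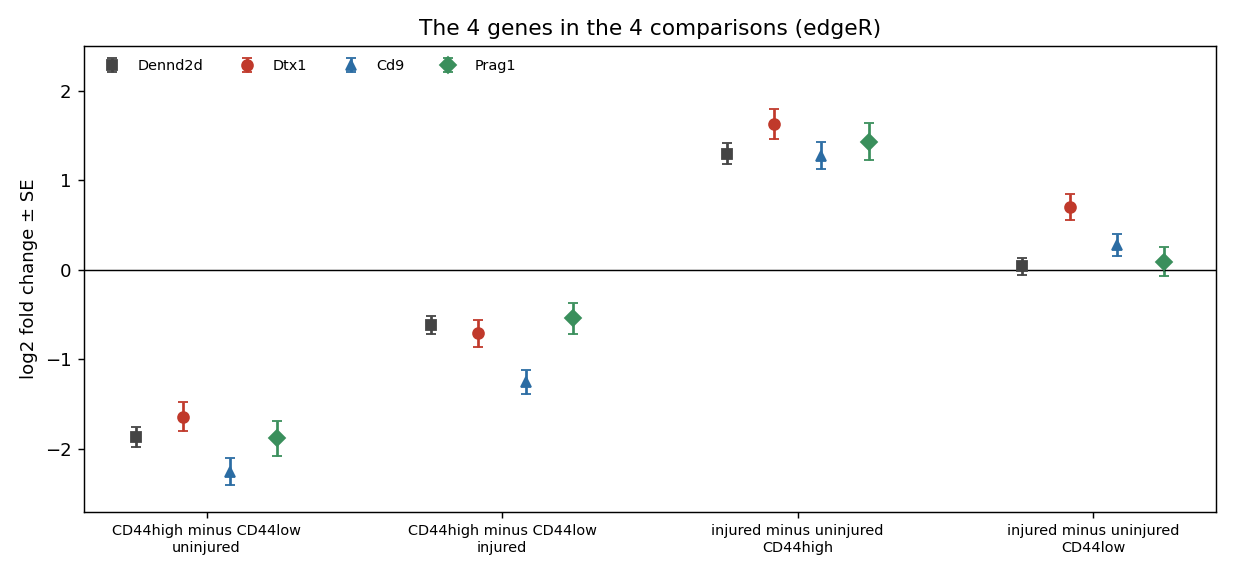
Log2 fold changes (y axis) with their standard errors for the 4 genes in the 4 comparisons of the design (x axis), from the edgeR fit over 19 samples. The subset difference shrank from between -2.25 and -1.64 in uninjured mice to between -1.25 and -0.54 in injured mice, and Dtx1 stands highest in the CD44low injury comparison at 0.70.

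The CD44low injury comparison was not used to choose the genes. Dtx1 rose there by 0.70 on the log2 scale (SE 0.14, edgeR quasi-likelihood test, Benjamini-Hochberg adjusted p = 0.00568), or 1.62-fold, with each of the 6 injured libraries above each of the 5 uninjured ones. Among all genes 4.24% passed this test as higher and 3.36% as lower, and 2.39% had no overlap in this direction. The call for Dtx1 held without any single library, with adjusted p-values from 0.000131 to 0.0176 over 29 alternative settings. Of the CD44low injured libraries, 3 carry a second number in their label (1_2, 4_2 and 5_2). Dtx1 averaged 390.3 ± 58.7 CPM in those and 399 ± 97.6 CPM in the other 3, and without them the change was 0.72 (edgeR adjusted p = 0.00678). Libraries 1_2 and 5_2 repeat the numbers of libraries 1 and 5, and the labels do not say whether they share a source. Dtx1 read 292 and 324 CPM in 1 and 1_2, and 482 and 437 CPM in 5 and 5_2. The main p-value counts all 6 as independent, and the call also held with each of these pairs summed.

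Cd9 was 0.27 higher in CD44low injured Tregs (SE 0.12), which did not pass in edgeR (adjusted p = 0.163). Leaving out CD44low injured replicate 5_2, its lowest library in that group, gave 0.36 with an adjusted p of 0.0440, and the two-sided exact permutation test over 5 and 6 libraries gave p = 0.0411 before any correction over genes. That test too counts the CD44low injured libraries with a repeated number as independent. Dennd2d differed by 0.04 (SE 0.10, edgeR adjusted p = 0.820) and Prag1 by 0.09 (SE 0.16, edgeR adjusted p = 0.761). The 95% interval of the log2 difference ran from -0.14 to 0.23 for Dennd2d and from -0.23 to 0.41 for Prag1, so a change as large as that of Dtx1 lay outside both.

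How far each gene closed the subset gap was measured as the CD44high change with injury divided by the uninjured subset difference, from mean log2 CPM. Dtx1 closed 98.0% (SE 9.69), Prag1 74.0% (SE 12.2), Dennd2d 69.4% (SE 3.31) and Cd9 56.1% (SE 6.77). Numerator and denominator share the CD44high uninjured libraries. On the scale of mean CPM, which weighs the top of the range more, the values were 99.0, 63.0, 54.9 and 37.8%. Against the CD44low level of injured mice as the target, Dtx1 closed 69.6% (SE 7.86), beside 70.7% for Prag1, 67.9% for Dennd2d and 50.2% for Cd9. The near-complete closure of Dtx1 was thus relative to the uninjured CD44low level alone, since its CD44low level was itself higher after injury. Of the uninjured log2 gap, 42.8% remained between the subsets of injured mice for Dtx1, 55.6% for Cd9, 32.7% for Dennd2d and 30.6% for Prag1.

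By library, closure was even for Dennd2d and uneven for the others. CD44high injured replicates 2, 3, 4 and 5 closed 73.8, 71.7, 61.9 and 70.1% of the Dennd2d gap. For Dtx1 they closed 72.9, 118, 105 and 96.1%, and for Prag1 45.4, 99.6, 83.8 and 66.9%. For Cd9 the values were 72.0, 42.1, 53.8 and 56.6%. Replicate 2 was therefore the lowest for Dtx1 and Prag1 and the highest for Cd9, and replicate 3 the reverse.

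**Figure D3:**
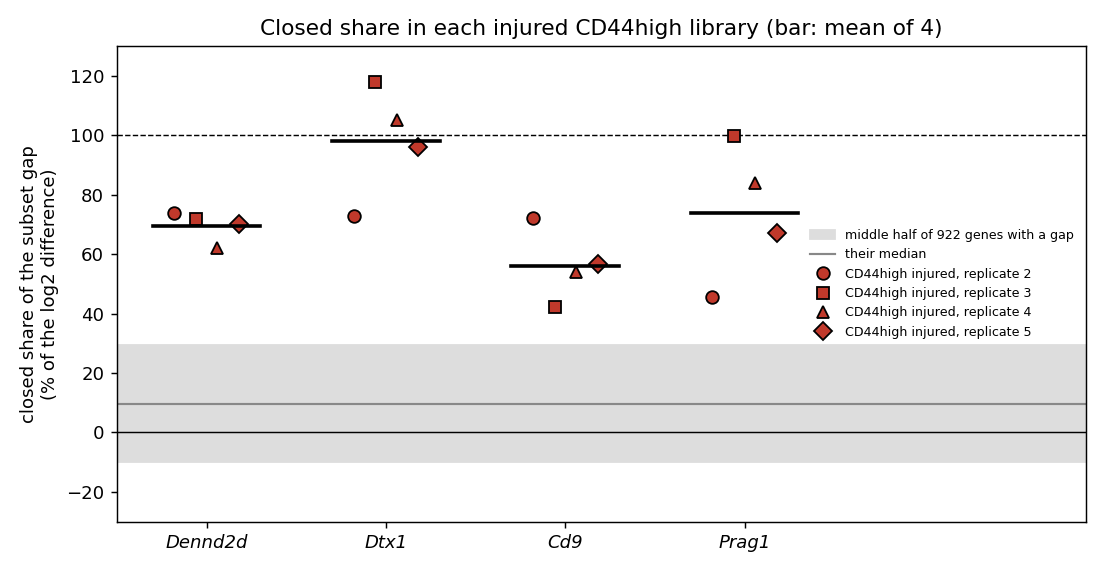
Closed share of the uninjured subset gap (y axis, percent of the log2 difference) in each of the 4 CD44high injured libraries for the 4 genes; the bar is the mean of 4, the grey band the interquartile range and the grey line the median of 922 genes at least 2-fold lower in CD44high uninjured Tregs. All 16 points lie above the band, as the 4 genes were picked for this quantity, and replicates 2 and 3 change places between Cd9 and the pair Dtx1 and Prag1.

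Among 922 genes at least 2-fold lower in CD44high Tregs of uninjured mice, the median closed share was 9.72%, with quartiles at -9.77 and 29.4%. It was positive for 571 of them (61.9%) and over 50% for 91 (9.87%). Dtx1 ranked 11th, Prag1 23rd, Dennd2d 30th and Cd9 62nd. As the genes were picked for this quantity, the ranks are a description. Of the genes ranked above Dtx1, all but Gimap7 stayed at or below 17.1 CPM in every group mean.

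A list of 17 genes of resting T cells was compared with these values, since the 4 genes had been grouped as resting-like. All 17 were lower in CD44high than in CD44low Tregs of uninjured and of injured mice, where 21.3% and 17.2% of all genes passed as lower and 24.7% and 20.1% as higher in edgeR. The list was chosen with earlier results of these data known, so nothing is read from that count. With injury 3 of 17 rose in CD44high Tregs and 0 fell in edgeR, against 1.06% and 1.33% of all genes, while 9 had an unadjusted p under 0.05 and DESeq2 called 4, the additional one being Foxo1, which was lower (log2 -0.35, edgeR adjusted p = 0.0506). These were the chromatin organizer Satb1 (log2 1.56, SE 0.13, adjusted p = 2.26e-07), the transcription factor Tcf7 (0.60, SE 0.09) and Klf3 (0.58, SE 0.13). The Klf3 call was lost without CD44high uninjured replicate 2 or 5 or CD44high injured replicate 2 (edgeR adjusted p for Klf3 from 0.0547 to 0.0750). The closed shares of Satb1, Tcf7 and Klf3 were 41.0, 31.7 and 52.6%. As the 4 genes had been picked for this quantity, nothing is read from their standing against these shares. The median closed share of the 17 was -7.98%, 8 of 17 were positive, and Foxo1 and Klf2 stood at -59.7 and -41.4%. The list as a whole thus did not return toward the CD44low level. In CD44low Tregs Foxo1 fell by 0.47 and Foxp1 by 0.32 on the log2 scale with injury, and 0 of 17 rose in edgeR, with 8 at an unadjusted p under 0.05 and 3 called by DESeq2. The Foxp1 call was lost when CD44low uninjured replicate 1, 2 or 5 or CD44low injured replicate 1 or 5 was left out (edgeR adjusted p for Foxp1 from 0.0543 to 0.108).

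**Figure D4:**
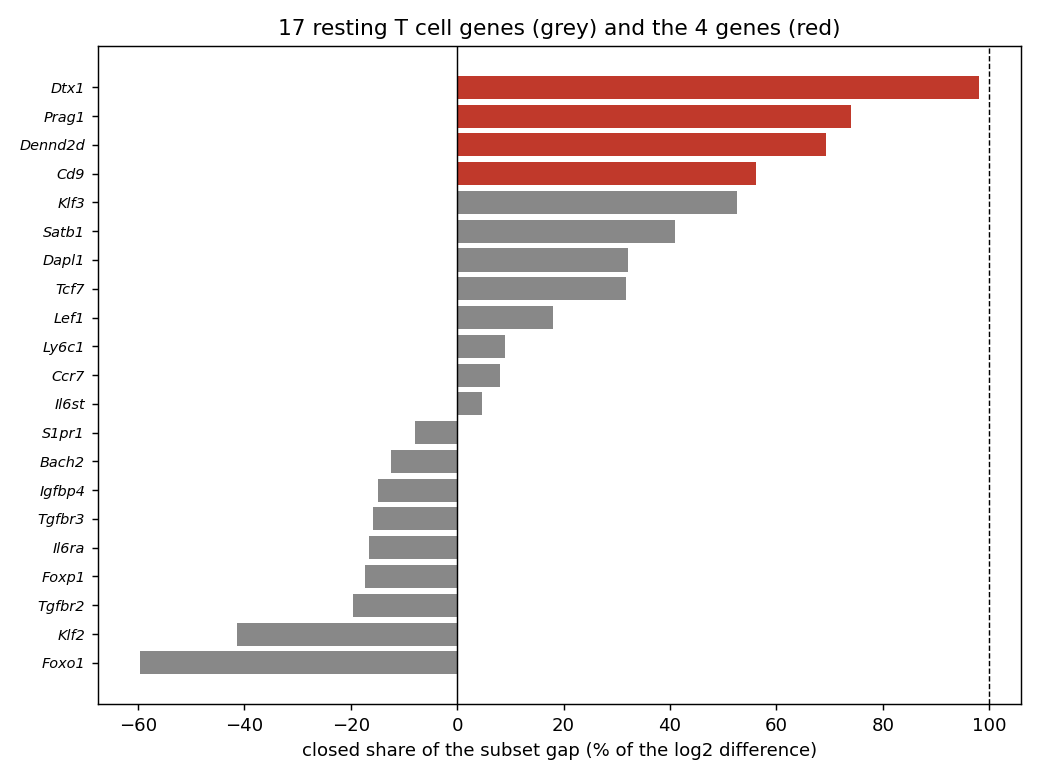
Closed share of the uninjured subset gap (x axis, percent of the log2 difference) for 17 resting T cell genes (grey bars) and the 4 genes (red bars); the dashed line marks 100%. The 4 genes, which were picked for this quantity, run from 56.1 to 98.0%, and the resting genes from -59.7% for Foxo1 to 52.6% for Klf3.

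Over the 19 samples the 4 genes followed each other, with Pearson's r of log2 CPM from 0.858 (Dtx1 and Cd9) to 0.957 (Dennd2d and Cd9). The points share the 4 group levels, and r is given as a description. Nearest to Dennd2d after Cd9 were Art2b (r = 0.953), an ADP-ribosyltransferase of the T cell surface, and Satb1 (r = 0.950). Nearest to Dtx1 were Prag1 (r = 0.948), the filamin-binding Rflnb (r = 0.928) and the lysosomal lipase Lipa (r = 0.910). Cd9 was near to Gimap6 (r = 0.970) and Gimap3 (r = 0.965), which encode GTPases of lymphocytes, and to the sphingolipid desaturase Degs2 (r = 0.965). Prag1 was nearest to Dtx1, to the Arf regulator Asap1 (r = 0.931) and to Dennd2d (r = 0.921). Rflnb, like Dtx1, was higher with injury in both subsets, by 0.96 (SE 0.14) in CD44high and by 0.62 (SE 0.12) in CD44low Tregs on the log2 scale. As it was picked for following Dtx1 over these same samples, these values are a description with no test.

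Within groups the genes parted. Taking the group means out, Dtx1 and Prag1 still moved together (r = 0.838 over 19 libraries), whereas Cd9 ran against both (r = -0.563 with Dtx1 and -0.609 with Prag1). For Dennd2d r ran from -0.277 with Dtx1 to 0.083 with Cd9. A trend on transcript length moved with these deviations. In each library the slope of log2 CPM, relative to the gene's mean, on log2 exon length was computed over 11350 genes, and it ran from -0.224 in CD44high injured replicate 2 to 0.162 in CD44low uninjured replicate 1. Within groups the slope correlated at 0.692 with Dtx1, 0.675 with Prag1, 0.046 with Dennd2d and -0.758 with Cd9, the gene with the shortest exons. With the slopes taken out, r was 0.775 for Dtx1 and Prag1, -0.399 for Dtx1 and Cd9 and -0.405 for Prag1 and Cd9. For Dennd2d it was then -0.524 with Dtx1, -0.455 with Prag1 and 0.324 with Cd9, larger in size than before.

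The slope also differed between groups, from -0.053 to -0.026 in CD44high uninjured, 0.070 to 0.162 in CD44low uninjured, -0.224 to 0.002 in CD44high injured and -0.145 to 0.125 in CD44low injured Tregs. With it taken out, a step chosen after seeing the data, the closed shares were 102% for Dtx1, 85.2% for Prag1, 75.6% for Dennd2d and 50% for Cd9. In the CD44low injury comparison Dtx1 then changed by 0.73 (edgeR adjusted p = 0.00255), Dennd2d by 0.12, Cd9 by 0.16 and Prag1 by 0.21, and these other genes did not pass.

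**Figure D5:**
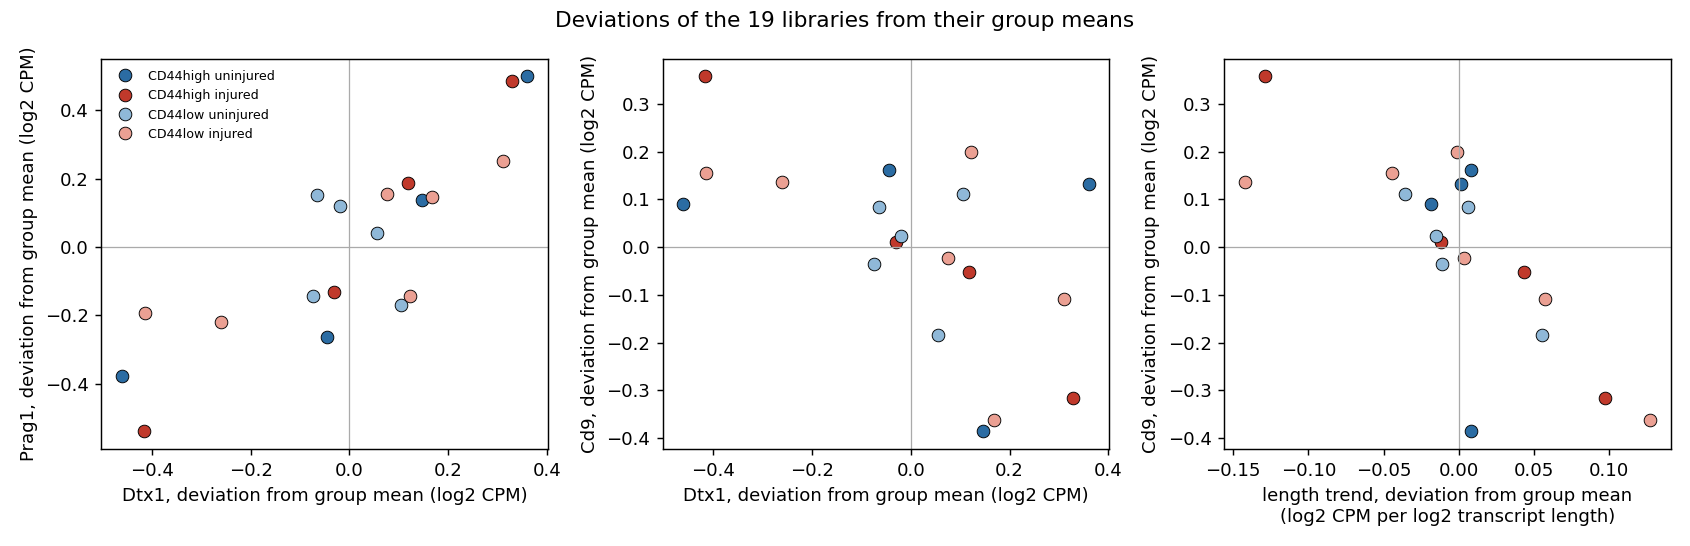
Deviations of the 19 libraries from their group mean in log2 CPM, for Prag1 against Dtx1 (left), Cd9 against Dtx1 (middle) and Cd9 against the library's length trend (right, log2 CPM per log2 exon length); colours are the 4 groups. Prag1 rises with Dtx1 (r = 0.838), and Cd9 falls with Dtx1 (r = -0.563) and with the length trend (r = -0.758).

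Of 33 other genes of the Notch pathway tested, none passed for injury in CD44high Tregs in edgeR, against 1.06% of all genes higher and 1.33% lower, so that a count of 0 is near the background. Among them 3 had an unadjusted p under 0.05 and DESeq2 called 1, Rbpj, which went from 22.0 ± 2.32 to 12.8 ± 3.05 CPM, opposite in sign to Dtx1. In CD44low Tregs 2 rose and 1 fell in edgeR, beside 4.24% and 3.36% of all genes, while 10 of 33 had an unadjusted p under 0.05 and DESeq2 called 4. Psen2, a presenilin of the complex that cuts Notch, rose by 0.46 (SE 0.11, edgeR adjusted p = 0.0154) and kept its call in all 28 alternatives. Its partner Aph1b rose from 0.27 to 1.33 CPM, which was lost without CD44low uninjured replicate 1 (edgeR adjusted p = 0.0525). The ubiquitin ligase Neurl3 fell by 0.50 on the log2 scale, which was lost without CD44low uninjured replicate 1 or 2 (edgeR adjusted p = 0.0564 for each). The median log2 change over the 33 genes was -0.02 in CD44high and -0.01 in CD44low Tregs, beside -0.02 and 0.01 over all genes. The sub-list of receptors, ligands and glycosylation genes had a median of -0.42 in CD44low Tregs, with 5 of 9 at an unadjusted p under 0.05, 0 called by edgeR and 1, Pofut1, by DESeq2. The Notch targets Hes1 and Hey1 stayed at or below 2.18 CPM in every group mean. Between the subsets of uninjured mice 6 of 33 were higher and 12 lower in CD44high Tregs, where 24.7% and 21.3% of all genes were. Among the lower was the receptor Notch2, at 22.0 ± 7.59 against 119.98 ± 26.2 CPM, and with injury it read 24.3 ± 15.1 CPM in CD44high Tregs, a closed share of 1.24%.

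Of the other Deltex genes, Dtx2, Dtx3, Dtx3l and Dtx4, none passed for injury in either subset in edgeR or DESeq2, with 1 of 4 at an unadjusted p under 0.05 in CD44low Tregs and 0 in CD44high. These counts are near the share over all genes (1.06% higher and 1.33% lower in CD44high, 4.24% and 3.36% in CD44low Tregs). Dtx4, like Dtx1, was lower in CD44high Tregs (1.63 ± 0.81 against 7.05 ± 2.21 CPM in uninjured mice), yet it stood at 1.86 ± 0.74 CPM after injury, a closed share of 11.0%. Dtx3l had the highest level of these at 241 ± 40.6 CPM in CD44low uninjured Tregs.

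Among 17 genes of T cell anergy, the state to which Dtx1 is tied, Izumo1r (folate receptor 4) rose with injury in CD44high (log2 0.77, SE 0.13, edgeR adjusted p = 0.00106) and in CD44low Tregs (0.46, SE 0.11, edgeR adjusted p = 0.0134). No other passed in CD44high Tregs in edgeR or DESeq2, with 5 of 17 at an unadjusted p under 0.05. Among all genes 1.06% were higher and 1.33% lower there. In CD44low Tregs Ndfip1, an adaptor of ubiquitin ligases, rose by 0.37 and the nuclear receptor Nr4a3 fell by 1.13 on the log2 scale. Thus 2 of 17 rose and 1 fell there in edgeR, against 4.24% and 3.36% of all genes, with 6 at an unadjusted p under 0.05. The Ndfip1 call was lost without CD44low uninjured replicate 1 or CD44low injured replicate 1_2 (edgeR adjusted p = 0.0576 and 0.0514), and that of Nr4a3 without CD44low uninjured replicate 4 (edgeR adjusted p = 0.0618).

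For Cd9, 18 further tetraspanins were tested. In edgeR 1 rose with injury in CD44high and 3 in CD44low Tregs, against 1.06% and 4.24% of all genes, and 0 fell. At an unadjusted p under 0.05 there were 6 in CD44high and 7 in CD44low Tregs. DESeq2 called 2 and 5, adding Cd53 in CD44high and Tspan4 and Tspan17 in CD44low Tregs. Tspan13 rose in CD44high (log2 0.66, SE 0.13, edgeR adjusted p = 0.00458) and in CD44low Tregs (0.46, SE 0.11, edgeR adjusted p = 0.0158). The CD44low call of Tspan13 was lost with the replicate number as a block (adjusted p = 0.0503) and with only second-number libraries in the injured group (adjusted p = 0.0696). Tspan31 and Cd82 were called higher in CD44low Tregs at adjusted p-values of 0.0476 and 0.0477, and these calls were lost in 9 and 11 of the 19 single-library omissions. Cd82 was higher in CD44high than in CD44low Tregs of uninjured mice (log2 1.05), the opposite of Cd9. Of 9 tetraspanin partners, the integrin Itgb1 rose and the immunoglobulin-family partner Igsf8 fell in both subsets. In CD44high Tregs these were the only edgeR calls, against 1.06% of all genes higher and 1.33% lower, with 4 of 9 at an unadjusted p under 0.05. In CD44low Tregs 1 rose and 3 fell in edgeR, against 4.24% and 3.36% of all genes, with 6 of 9 at an unadjusted p under 0.05. Itgb1 changed by 0.53 in CD44high and 0.56 in CD44low Tregs and Igsf8 fell by 0.54 and 0.45 on the log2 scale. The CD44high calls were lost without any one of the 8 CD44high libraries for Itgb1 (edgeR adjusted p from 0.0585 to 0.123) and without 5 of them for Igsf8 (up to 0.0991), and the CD44low call of Igsf8 without CD44low uninjured replicate 1 (0.0525). The integrin Itga4 fell by 0.74 (SE 0.12, edgeR adjusted p = 0.000725) in CD44low Tregs and was 0.53 higher in CD44high Tregs without passing (edgeR adjusted p = 0.0557), where DESeq2 called it. The integrin Itga3 fell by 0.98 in CD44low Tregs (edgeR adjusted p = 0.0379), a call lost in 8 single-library omissions.

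None of 17 other DENN domain genes passed for injury in CD44high Tregs in edgeR or DESeq2, and 0 had an unadjusted p under 0.05, a count near the share over all genes (1.06% higher and 1.33% lower). In CD44low Tregs Avl9, a DENN protein of membrane traffic, fell by 0.93 on the log2 scale (SE 0.19, edgeR adjusted p = 0.00574), and it held without any single library. DESeq2 also called Sbf2 there, which did not pass in edgeR (log2 -0.70, adjusted p = 0.0595). Of 7 genes listed for the PEAK family and its partners, 0 passed in CD44high Tregs in edgeR and in DESeq2, with 1 at an unadjusted p under 0.05. Peak1, the pseudokinase closest to Prag1 by family, was called lower in CD44low Tregs (-0.55, edgeR adjusted p = 0.0473), as was Rhoa (-0.27, edgeR adjusted p = 0.0475), and these calls were lost in 14 and 18 of the 19 single-library omissions. Csk, the kinase that Prag1 binds, read 189.6, 209.7, 214 and 249.7 CPM in CD44high uninjured, CD44high injured, CD44low uninjured and CD44low injured Tregs. Of 10 Csk and Src family genes, Fyn was called higher in CD44high Tregs (0.40, edgeR adjusted p = 0.0369, lost without any one of the 8 CD44high libraries) and Lck in CD44low Tregs (0.42, SE 0.10, edgeR adjusted p = 0.0122). With only second-number libraries in the injured group Lck changed by 0.27 and did not pass (edgeR adjusted p = 0.119).

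Some markers of other cells differed with injury in CD44high Tregs as well, where 1.06% of all genes passed as higher and 1.33% as lower in edgeR. Of 4 follicular T cell genes tested, Cxcr5, Sh2d1a and Pdcd1 rose in CD44high Tregs with injury by 1.496, 1.12 and 0.91 on the log2 scale. The summed level of 5 such genes went from 247 to 277 CPM in uninjured to 482 to 599 CPM in injured libraries. Among 9 B cell genes Cd22 rose (log2 1.72, SE 0.31, edgeR adjusted p = 0.00267), and their sum ran from 118 to 249.7 CPM in CD44high uninjured and from 170.1 to 329 CPM in CD44high injured libraries. Pecam1, of the endothelial list and also carried by resting T cells, rose from 60.7 ± 6.79 to 97.8 ± 15.2 CPM and was at 201 ± 14.0 CPM in CD44low uninjured Tregs. None of 8 macrophage and dendritic cell genes passed in CD44high Tregs in edgeR or DESeq2, with 2 at an unadjusted p under 0.05, and their sum ran from 75.5 to 154 and from 93.6 to 243 CPM. Of 6 genes of CD8 T and natural killer cells, 0 passed there in edgeR, with 3 at an unadjusted p under 0.05. DESeq2 called 1, Klrb1c, which went from 3.71 ± 2.47 to 12.8 ± 2.68 CPM. The 6 platelet genes, listed because platelets carry Cd9, were near 0 and summed to at most 2.67 CPM in any library. Neutrophil genes reached 20.4 CPM in CD44high injured libraries, S100a9 being called higher at an adjusted p of 0.0496 in CD44high and 0.0241 in CD44low Tregs from levels below 0.1 CPM, calls that were lost in 12 and 5 single-library omissions. The part of these cells in the values of the 4 genes was not tested.

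In CD44low Tregs, where Dtx1 rose, further markers were called higher with injury, beside 4.24% of all genes. The macrophage gene Lyz2 went from 22.5 ± 6.62 to 54.1 ± 35.0 CPM (log2 1.27, SE 0.35, edgeR adjusted p = 0.0301), 1 of 8 such genes called, and their sum ran from 23.8 to 41.1 CPM in uninjured and from 35.0 to 155 CPM in injured libraries. The natural killer cell receptor Klrb1c went from 0.29 to 2.32 CPM (log2 2.997, SE 0.66, edgeR adjusted p = 0.00872). Pdcd1 rose by 0.54 (edgeR adjusted p = 0.0358), and the follicular sum ran from 176 to 207 and from 212 to 311 CPM. With only second-number libraries in the injured group, a setting with fewer libraries, none of these calls held. Lyz2 then changed by 0.51, Klrb1c by 2.20 (edgeR adjusted p = 0.107) and Pdcd1 by 0.26. Dtx1 changed by 0.71 in that setting (edgeR adjusted p = 0.0176). A call lost with fewer libraries is not an absence of change, so this setting cannot tell Dtx1 apart from these markers. The Lyz2 call was also lost without CD44low uninjured replicate 1, 4 or 5 or CD44low injured replicate 5, and that of Pdcd1 without CD44low uninjured replicate 2, 4 or 5 or CD44low injured replicate 1 or 2. Neutrophil genes summed to at most 1.69 CPM in uninjured and 31.6 CPM in injured libraries. The part of these cells in the Dtx1 value was not tested.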

How the data were processed

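RNA of sorted Treg samples had been converted to cDNA with SMART-Seq v4, sheared and made into libraries with a Swift 2S kit. Per the labels, bcl2fastq 2.18 and STAR 2.5 were used and mm9 and mm10 are both named. The authors deposited raw counts per gene symbol, 24982 genes by 19 samples, and the sources name no strand setting for the counting. The genes and lists were chosen with earlier results of these data known. A gene of the resting T cell list is not reported here.

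Groups came from the labels. Genes were kept by edgeR's filterByExpr (minimum count 10), scaled by TMM factors (0.970 to 1.04), and tested over all 19 samples with edgeR 4.0.16 (glmQLFit, glmQLFTest, one coefficient per group, R 4.3.3) with Benjamini-Hochberg adjustment over 11464 genes at a threshold of 0.05. CPM use TMM-scaled totals and log2 CPM a prior count of 2. Library totals ran from 5582234 to 9433610, and the lowest single count of the 4 genes was that of Prag1, at 72. Alternatives were DESeq2 1.42.0, RLE factors, no filter, the compared groups alone, a replicate block, libraries with a second number left out, kept alone or summed, single libraries left out, an exact permutation test, other scales of the closed share, and a length trend taken out. The fits were tested on simulated data. Genes were named by a rule: the 4 genes, up to 3 list genes of smallest p in each injury comparison and direction, the gene of highest CPM in each family, the 3 genes of nearest pattern, called markers of other cells, and the 5 genes of largest closed share.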

Additional observations from a re-analysis of the deposited data

Results flagged for a closer look

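Cd9 in CD44high uninjured replicate 3, at 19.3 CPM against 27.0 to 28.4 CPM in the other 3, lay apart from its group by Dixon's test. It was the only one of 16 groups of values so marked, and chance marks about 1 in 20. Without that library the closed share of Cd9 was 53.5%.

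Among 38 named list genes, 5 had an injury effect that differed between the subsets in edgeR's interaction test (CD44high minus CD44low effect, log2). The 38 had been named because they were called in an injury comparison, and those comparisons form the interaction. The values are therefore a description, nothing is read from the count, and the share over all genes is not given. The difference was 1.71 for Satb1 (edgeR adjusted p = 4.72e-06), 0.70 for Tcf7, 1.27 for Itga4, -1.13 for Cxcr3 and -1.48 for Ccr2. Satb1 and Tcf7 had risen in CD44high Tregs, as the 4 genes were higher there, without passing in CD44low Tregs. The interaction was not tested for the 4 genes, because the CD44high comparison had chosen them.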

How the results depend on the processing

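In the CD44low injury comparison all 4 genes kept their direction in 29 alternatives. Dennd2d, Dtx1 and Prag1 kept their side of the threshold, and Cd9 crossed it without CD44low injured replicate 5_2 (0.36) and in the exact permutation test (0.26, p = 0.0411). Without single libraries the change ran from 0.25 to 0.36 for Cd9 and from 0.66 to 0.79 for Dtx1.

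Deviations of same-numbered libraries correlated between -0.066 and 0.167. Between CD44high and CD44low libraries of the same number, r ran from -0.007 to 0.119 in uninjured mice and was 0.167 and 0.116 in injured mice. Libraries of different numbers were not compared, so whether the label numbers pair the samples was not settled. With a replicate block Dtx1 changed by 0.73 (adjusted p = 0.00969), and 439 genes were called in CD44low Tregs in place of 871.

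Closed shares moved by more than the spread of libraries for Dennd2d on the CPM scale (54.9%) and without the length trend (75.6%), for Dtx1 against the injured CD44low target (69.6%, and 69.4% without second-number libraries), and for Cd9 on the CPM scale (37.8%). Without single libraries they ran from 67.9 to 71.9% for Dennd2d, 91.4 to 106% for Dtx1, 50.8 to 60.8% for Cd9 and 65.4 to 83.5% for Prag1. The 12 untested differences of the 4 genes kept their sign in all 28 alternatives.

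Counts depended on settings more. All genes called in CD44low Tregs numbered 1451 with DESeq2, 464 with only the compared groups, 1749 without second-number libraries, 445 with those alone, 143 at 2-fold or more, and 510 to 1893 without single libraries (highest without CD44low injured replicate 5_2). Pathway list genes called for injury in CD44low Tregs numbered 17, and 8 with only the compared groups, 10 with the replicate block, 33 without second-number libraries, 8 with those alone, 2 at 2-fold or more and 10 to 29 without single libraries. In CD44high Tregs they numbered 5, and 8 with DESeq2, 11 with only the compared groups, 10 without second-number libraries, 8 with those alone, 10 with libraries summed, 0 at 2-fold or more and 2 to 8 without single libraries. Between subsets they numbered 59 in uninjured and 45 in injured mice, and 32 and 19 at 2-fold or more. Of 44 named list calls, 20 held in every alternative and 20 were lost without at least 1 library. The causes were not tested. Prag1 had the lowest single count of the 4 genes, 72 in a CD44high uninjured library. The part of depth in its spread was not tested.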

Other observations

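Of 18 effector Treg genes, the counterpart of the resting list, all were higher in CD44high than in CD44low Tregs in uninjured and injured mice. Among all genes 24.7% and 20.1% passed as higher there in edgeR. This list too was chosen with earlier results of these data known, so nothing is read from that count. With injury the chemokine receptor Cxcr3 (log2 -0.90, SE 0.17, edgeR adjusted p = 0.00306) and the integrin Itgae (-0.73, SE 0.15, edgeR adjusted p = 0.00705) fell in CD44high Tregs, 2 of 18 against 1.33% of all genes, and none of 18 rose there in edgeR, with 10 at an unadjusted p under 0.05 and 5 called by DESeq2 in either direction. In CD44low Tregs 8 of 18 rose, against 4.24% of all genes, among them the costimulatory receptor Icos (0.86, SE 0.13), the checkpoint receptor Ctla4 (0.73, SE 0.11) and the chemokine receptor Ccr2 (1.03, SE 0.18), and none fell in edgeR, with 11 at an unadjusted p under 0.05 and 10 called by DESeq2 in either direction.

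The 5 genes of largest closed share among the 922 were Clu (153%), Cpa3 (142%), Cd160 (141%), E330033B04Rik (123%) and Gimap7 (123%). Gimap7 alone of these was well above the floor, at 58.8, 153, 126 and 193 CPM in CD44high uninjured, CD44high injured, CD44low uninjured and CD44low injured Tregs.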
